A study of Danio rerio with 2 samples.

Results

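Retinoic acid is a small signalling molecule made from vitamin A, and embryos keep its level in bounds by making, binding and destroying it. Enzymes of the Cyp26 family of cytochromes P450 oxidise it for clearance, cellular binding proteins carry it, and nuclear retinoic acid receptors, paired with retinoid X receptors, switch target genes according to whether it is bound. In the zebrafish heart, retinoic acid signalling is known to limit the number of early heart progenitors, and Cyp26 enzymes hold that signal down. The genes described here are the Cyp26 breakdown enzymes cyp26a1, cyp26b1 and cyp26c1, the receptors raraa, rarab, rarga and rargb, the binding protein gene crabp2a, and dhrs3a and aldh1a3, whose enzymes act on retinal, the aldehyde precursor of retinoic acid. They were chosen by name from the pathway, as 10 gene symbols, with earlier results of these data known. All 10 were found in the authors' gene names, and because crabp2a stands there under 2 Ensembl identifiers they make 11 of the 26126 listed genes.

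The tissue was embryonic heart, taken from kctd10 -/- mutant and wild-type zebrafish of the AB background 48 hours after fertilization (48 hpf), with 1 RNA sequencing library each. kctd10 encodes an adaptor of the Cullin 3 ubiquitin ligase, and no other allele or treatment is labelled in either group. The sources used here state neither the number of hearts in a library nor the nature of the kctd10 allele. The study set mRNA levels in mutant hearts against those in wild-type hearts, and with 1 library each there is no replicate check, so every ratio compares these libraries as labelled.

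Gene counts summed to 139099775 in the mutant library and 150001992 in the wild-type library. kctd10 itself had 19942 counts in the mutant library and 8226 in the wild-type library, 2.57-fold higher (95% counting interval 2.5002 to 2.63), the direction opposite to a loss of the transcript, so the genotypes below are those of the labels. Markers of heart muscle were present in both libraries. Of 16 such genes 15 were measured, with a summed level of 13606 CPM (counts per 1000000 of the scaled library size) in the mutant library and 8388 in the wild-type library, and the remaining one, myl4, had 0 counts in the mutant library and 1 in the wild-type library. Genes of other tissues were present as well, and the skin keratin gene krt4, the most counted gene, had 2975239 counts in the mutant library and 4500426 in the wild-type library. The skin markers summed to 31865 CPM in the mutant library and 43468 CPM in the wild-type library, more than the heart muscle markers in each. The cells that the retinoic acid transcripts came from were therefore not measured, and in such bulk samples fewer cells of a type and less RNA per cell cannot be told apart.

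Most of the breakdown and receptor genes had similar levels in both libraries, and only the receptor gene rargb differed by more than 1.5-fold. A gene was called higher or lower in the mutant library when it had at least 10 counts over both libraries and its whole 95% counting interval lay beyond 1.5-fold. By this rule 0 of the 11 genes were higher and 1 was lower, and the other 10 were called neither higher nor lower. Among all 24009 genes with at least 10 counts, 5.99% were called higher and 6.68% were called lower. The call of 1 gene in 11 is near that background share. All 11 genes passed the count minimum, with 327 to 11362 counts in the mutant library and 715 to 15227 in the wild-type library. Leaving rargb aside, their ratios of mutant over wild type ran between 0.754 for cyp26b1 and 1.21 for dhrs3a. The median log2 ratio of the 11 genes was −0.031, beside −0.00075 over all measured genes. The median size of the log2 ratio, sign ignored, was 0.21 for the 11 genes and 0.28 for all measured genes. Intervals cover counting error only: reads amplified by PCR and lacking molecular identifiers can stem from 1 molecule, and differences between animals and dissections are not included.

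**Figure D1:**
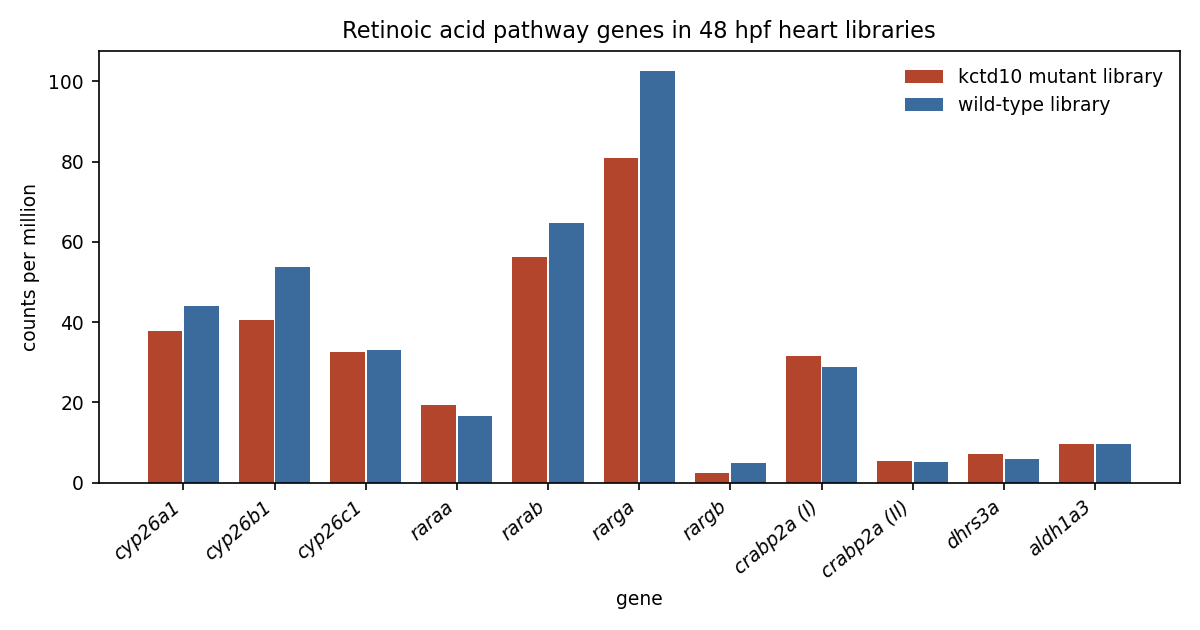
Level of each gene in CPM in the kctd10 mutant library (left bar of each pair) and the wild-type library (right bar), 1 library each, so there are no error bars. Counts are not divided by transcript length, so bars are to be compared within a gene. The pair for rargb, at 2.33 CPM in the mutant library and 4.81 in the wild-type library, differs most in proportion, while the bars of cyp26c1, crabp2a and aldh1a3 are close to equal. crabp2a (I) is ENSDARG00000040923 and crabp2a (II) is ENSDARG00000073978.

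The 3 Cyp26 genes encode the enzymes that clear retinoic acid, and none passed the rule. cyp26a1 (ENSDARG00000033999), whose enzyme is the best known of the family for protecting embryonic tissue from retinoic acid, had 5290 counts (37.7 CPM) in the mutant library and 6541 counts (44.0 CPM) in the wild-type library. Its ratio was 0.856 (0.825 to 0.888). cyp26b1 (ENSDARG00000077121), which encodes an enzyme with partly separate sites of expression, had 5701 counts (40.6 CPM) in the mutant library and 8001 counts (53.8 CPM) in the wild-type library. Its ratio of 0.754 (0.729 to 0.780) was the lowest of the 3, and 19.1% of all measured genes had a lower one. cyp26c1 (ENSDARG00000056029), the remaining paralogue, had 4561 counts (32.5 CPM) in the mutant library and 4904 counts (33.0 CPM) in the wild-type library. Its ratio was 0.984 with an interval from 0.945 to 1.02, so no difference was detectable at this depth. The intervals of cyp26a1 and cyp26b1, which cover counting error only, lay below 1, and both stayed inside the 1.5-fold limit.

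The summed counts of the Cyp26 genes were 15552 in the mutant library and 19446 in the wild-type library, a ratio of 0.846 (0.829 to 0.864). Within that sum the mixture shifted by a few percentage points, a comparison that no scaling of the libraries affects. cyp26b1 made up 36.7% (95% Clopper-Pearson interval 35.9 to 37.4) of the family's counts in the mutant library and 41.1% (40.5 to 41.8) in the wild-type library. cyp26c1 made up 29.3% (28.6 to 30.1) in the mutant library and 25.2% (24.6 to 25.8) in the wild-type library. The share of cyp26a1 was 34.0% (33.3 to 34.8) in the mutant library and 33.6% (33.0 to 34.3) in the wild-type library, and these intervals overlap. Whether such shifts exceed those between libraries of 1 genotype cannot be read from these samples.

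**Figure D2:**
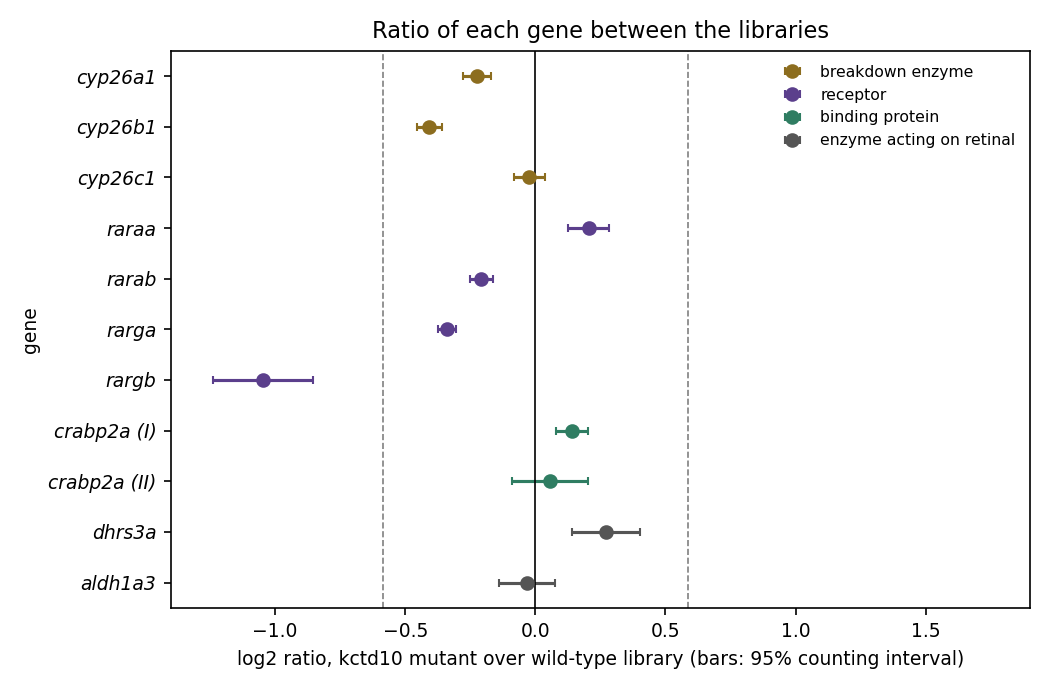
Log2 ratio of the kctd10 mutant library over the wild-type library for each gene, coloured by role, with 95% counting intervals as bars, a solid line at equal levels and dashed lines at 1.5-fold in either direction. The whole interval of rargb lies left of the lower dashed line, and all other intervals lie between the dashed lines.

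The receptor genes included the 1 gene that passed the rule. Zebrafish have a pair of genes each for the alpha and gamma receptors, proteins that sit on DNA with a retinoid X receptor and turn from repression to activation when retinoic acid binds. rargb (ENSDARG00000054003), a gamma receptor gene, had 327 counts (2.33 CPM) in the mutant library and 715 counts (4.81 CPM) in the wild-type library. It was 2.07-fold lower in the mutant library (1.81 to 2.36), a log2 ratio of −1.05. The mutant library thus held less than the wild-type library by more than its counting error allows, and 5.61% of all measured genes had a still lower ratio. rargb also had the fewest counts of the 11 genes.

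Its paralogue rarga (ENSDARG00000034117) had 11362 counts (80.9 CPM) in the mutant library and 15227 counts (102 CPM) in the wild-type library. The ratio was 0.790 (0.771 to 0.809), outside the rule for a lower gene. rargb provided 2.80% (2.51 to 3.11) of the counts of the gamma pair in the mutant library and 4.49% (4.17 to 4.82) in the wild-type library. rarga and rargb therefore did not change in proportion between the libraries, whatever the scaling. Paralogues of this kind may share reads, and how the counting assigned reads that match both genes is not known here, which makes the split within each pair uncertain.

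The alpha receptor genes raraa and rarab lay on opposite sides of equal levels, except when scaled to heart muscle markers, which placed both below. raraa (ENSDARG00000056783) had 2705 counts (19.3 CPM) in the mutant library and 2484 counts (16.7 CPM) in the wild-type library, a ratio of 1.15 (1.09 to 1.22). rarab (ENSDARG00000034893) had 7880 counts (56.1 CPM) in the mutant library and 9627 counts (64.8 CPM) in the wild-type library, a ratio of 0.866 (0.841 to 0.892). Neither passed the rule. raraa formed 25.6% (24.7 to 26.4) of the alpha pair's counts in the mutant library and 20.5% (19.8 to 21.2) in the wild-type library. The alpha pair together had a ratio of 0.925 (0.901 to 0.949) and the gamma pair 0.776 (0.758 to 0.795). Over all 4 receptor genes the counts summed to 22274 in the mutant library and 28053 in the wild-type library, a ratio of 0.840 (0.826 to 0.855). The gamma pair accounted for 52.5% (51.8 to 53.1) of receptor counts in the mutant library and 56.8% (56.2 to 57.4) in the wild-type library.

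**Figure D3:**
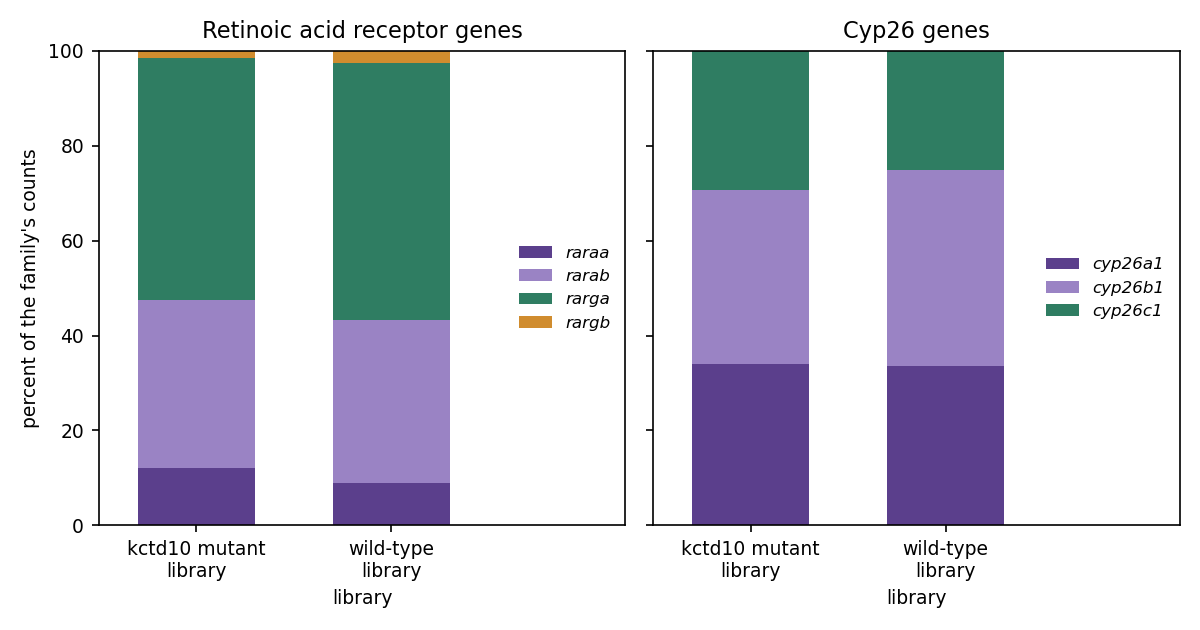
Share of each gene in the summed counts of the 4 retinoic acid receptor genes (left panel) and the 3 Cyp26 genes (right panel), in percent, with the kctd10 mutant library left of the wild-type library in each panel. raraa takes 12.1% of receptor counts in the mutant library and 8.85% in the wild-type library, and rargb takes 1.47% in the mutant library and 2.55% in the wild-type library.

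The binding protein and the enzymes of retinal gave no call. crabp2a encodes a protein that carries retinoic acid in the cell and is known to deliver it to receptors. Its identifier ENSDARG00000040923 had 4444 counts (31.6 CPM) in the mutant library and 4268 counts (28.7 CPM) in the wild-type library, a ratio of 1.102 (1.06 to 1.15). The second identifier, ENSDARG00000073978, had 767 counts (5.46 CPM) in the mutant library and 780 counts (5.25 CPM) in the wild-type library, and its ratio of 1.04 had an interval (0.941 to 1.15) that held 1. Both carry the same gene name, so how reads were divided between them is uncertain.

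dhrs3a (ENSDARG00000044982) encodes a reductase that turns retinal back into retinol and so lowers the supply of retinoic acid. It had 1021 counts (7.27 CPM) in the mutant library and 896 counts (6.03 CPM) in the wild-type library, a ratio of 1.21 (1.101 to 1.32), the highest of the 11 genes. aldh1a3 (ENSDARG00000076933) encodes a dehydrogenase that makes retinoic acid from retinal and is known for its expression in the eye. It had 1342 counts (9.56 CPM) in the mutant library and 1451 counts (9.77 CPM) in the wild-type library, and its ratio of 0.979 (0.908 to 1.05) gave no detectable difference at this depth. Under the main scaling the counting intervals place 5 of the 11 genes below equal levels, 3 above, and 3 on neither side. Over all measured genes the same intervals placed 34.2% below, 33.9% above and 31.9% on neither side.

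**Figure D4:**
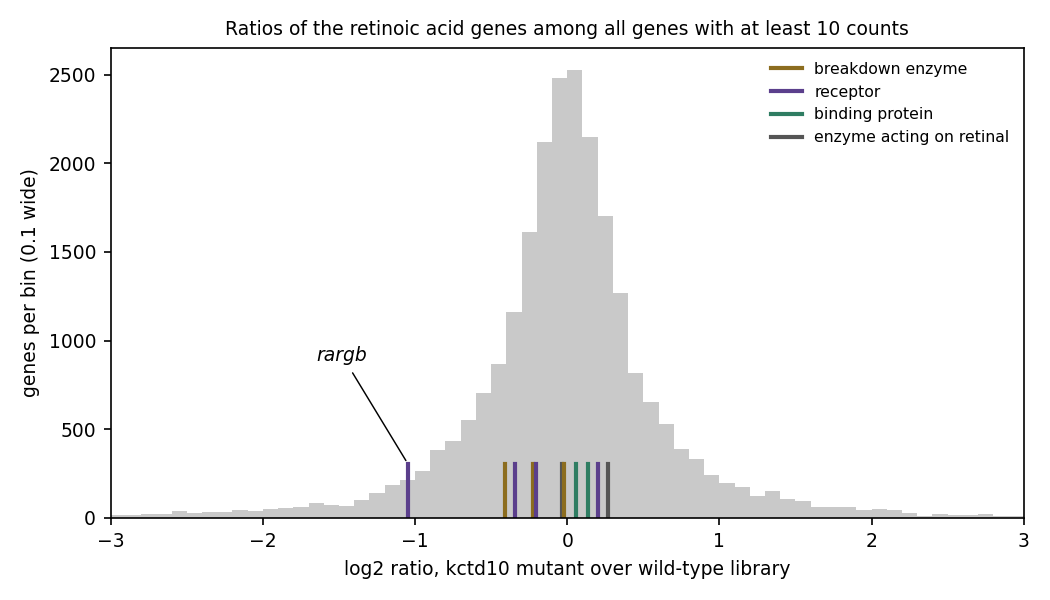
Distribution of the log2 ratio of the kctd10 mutant library over the wild-type library for genes with at least 10 counts, in bins 0.1 wide (grey, drawn between −3 and 3), with a coloured tick for each of the 11 genes by role. All ticks but that of rargb stand in the central mass of genes, and rargb stands at −1.05 in the lower flank.

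The authors' deposited table of Ensembl genes gives the mutant over the wild type for the same genes, from the same counts. Its fold was 0.483 for rargb, 0.752 for cyp26b1 and 1.203 for dhrs3a. The authors' deposited table of UniGene clusters, a separate grouping of transcripts, lists all 10 symbols, with folds of 0.5 for rargb, 0.74 for cyp26b1, 0.79 for rarga, 0.86 for cyp26a1 and 0.86 for rarab. In the same authors' deposited table raraa had 1.15, dhrs3a 1.21 and crabp2a 1.06. cyp26c1 and aldh1a3 stood at 1.05 and 1.01 in that authors' deposited table, on the other side of equal levels from their ratios over Ensembl genes, whose intervals held 1.

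Other genes of the pathway included larger differences. Of 35 measured genes that make, store, carry or take up retinoids, 3 were called higher and 4 lower in the mutant library. Their median log2 ratio was 0.20, and the shares over all measured genes were 5.99% higher and 6.68% lower. The main retinoic acid synthesis gene of the embryonic trunk and heart, aldh1a2, had 14536 counts in the mutant library and 5996 in the wild-type library, 2.57-fold higher (2.49 to 2.64). It is also an epicardial marker. Of the other 4 epicardial genes 3 were called higher, tcf21, wt1a and wt1b, while tbx18 had a ratio of 0.957, and these 4 summed to 37.1 CPM in the mutant library and 17.8 CPM in the wild-type library. The part of the epicardium in the aldh1a2 value was not tested. rdh10b, for an enzyme that oxidises retinol to retinal, was 1.83-fold higher (1.70 to 1.96), and stra6l, for a membrane protein of the retinol receptor family, 2.35-fold higher (1.74 to 3.21) on 142 counts in the mutant library and 64 in the wild-type library. Its better counted relative stra6 had a ratio of 1.47 (1.398 to 1.55). dhrs3b, the paralogue of dhrs3a, had 1.46 (1.399 to 1.53), and both genes were called neither higher nor lower.

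On the lower side, rlbp1a, for a retinal-binding protein of the eye's visual cycle, was 2.14-fold lower in the mutant library (1.96 to 2.35). Its better counted relative rlbp1b had a ratio of 0.876 (0.824 to 0.930), inside the limit. The retinol esterifying enzyme genes lratb.2 and lratb.1 were 2.58-fold (1.81 to 3.73) and 1.86-fold (1.61 to 2.14) lower. The retinol-binding protein gene rbp7b had 7 counts in the mutant library and 66 in the wild-type library, 8.91-fold lower (4.09 to 23.0). The plasma carrier gene rbp4, the most counted gene of this list, had a ratio of 0.919 (0.911 to 0.929).

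Among the other binding proteins and nuclear receptors, 5 of 15 measured genes were called lower and 0 higher in the mutant library. Over all measured genes 6.68% were lower and 5.99% higher. The median log2 ratio of the 15 genes was −0.26. crabp1a, a cellular retinoic acid binding protein gene, had 487 counts in the mutant library and 2728 in the wild-type library, 5.29-fold lower (4.81 to 5.84). Its relatives crabp1b, with a ratio of 0.834 (0.7665 to 0.908), and crabp2b, with 1.02 (0.955 to 1.09), were called neither higher nor lower. The retinoid X receptor genes rxrga and rxrgb, whose proteins partner the retinoic acid receptors, were 2.66-fold (2.48 to 2.87) and 2.65-fold (2.43 to 2.90) lower. The most counted partner gene, rxrba, had 12280 counts in the mutant library and 12927 in the wild-type library, a ratio of 1.01 (0.981 to 1.03). The remaining retinoid X receptor genes had ratios of 0.690 (rxrab), 0.844 (rxraa) and 0.848 (rxrbb). Their intervals lay below 1, and they were called neither higher nor lower. The other genes called lower were roraa (2.35-fold) and rorb (2.198-fold), orphan receptors named for their likeness to retinoic acid receptors. rorab, a better counted relative of roraa, had a ratio of 0.835 (0.804 to 0.867), inside the limit. rorb is also among the retinal markers, of which 5 of 20 were called higher and 4 lower, crx (10.3-fold lower) and otx2 (2.49-fold lower) among them, with summed levels of 862 CPM in the mutant library and 1085 CPM in the wild-type library. Their part in the values of these receptors was not tested. Of 14 measured coregulator genes, such as the corepressor gene ncor1 and the coactivator genes ncoa1 to ncoa3, 0 were called in either direction, and their log2 ratios ran between −0.34 for ep300b and 0.20 for nrip1b.

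Genes known to respond to retinoic acid went both ways, with 3 higher and 6 lower of 39 measured and a median log2 ratio of −0.096. The shares over all measured genes were 5.99% higher and 6.68% lower. The list does not separate genes by the direction in which they respond, so these counts are no measure of signalling. Several of its genes are also tissue markers, cdx1b among them, and the part of tissue mixture in their values was not tested. The genes hoxb8a and hoxb1b, of trunk and hindbrain patterning, were 2.21-fold (2.01 to 2.43) and 1.67-fold (1.52 to 1.83) higher in the mutant library, and the cardiac homeobox gene nkx2.7 was 2.05-fold higher (1.96 to 2.15). tgm2a, a transglutaminase gene, had 73 counts in the mutant library and 669 in the wild-type library, 8.66-fold lower (6.79 to 11.2). Its relative tgm2l was 3.16-fold lower, cdx1b, a gut and posterior homeobox gene, 3.13-fold, hoxd3a 2.88-fold, meis2b 2.35-fold and isl1 1.78-fold. The better counted tgm2b had a ratio of 1.44 (1.3996 to 1.48), inside the limit. nr2f2, the most counted gene of this list and a nuclear receptor of venous identity, had a ratio of 0.935 (0.919 to 0.950).

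**Figure D5:**
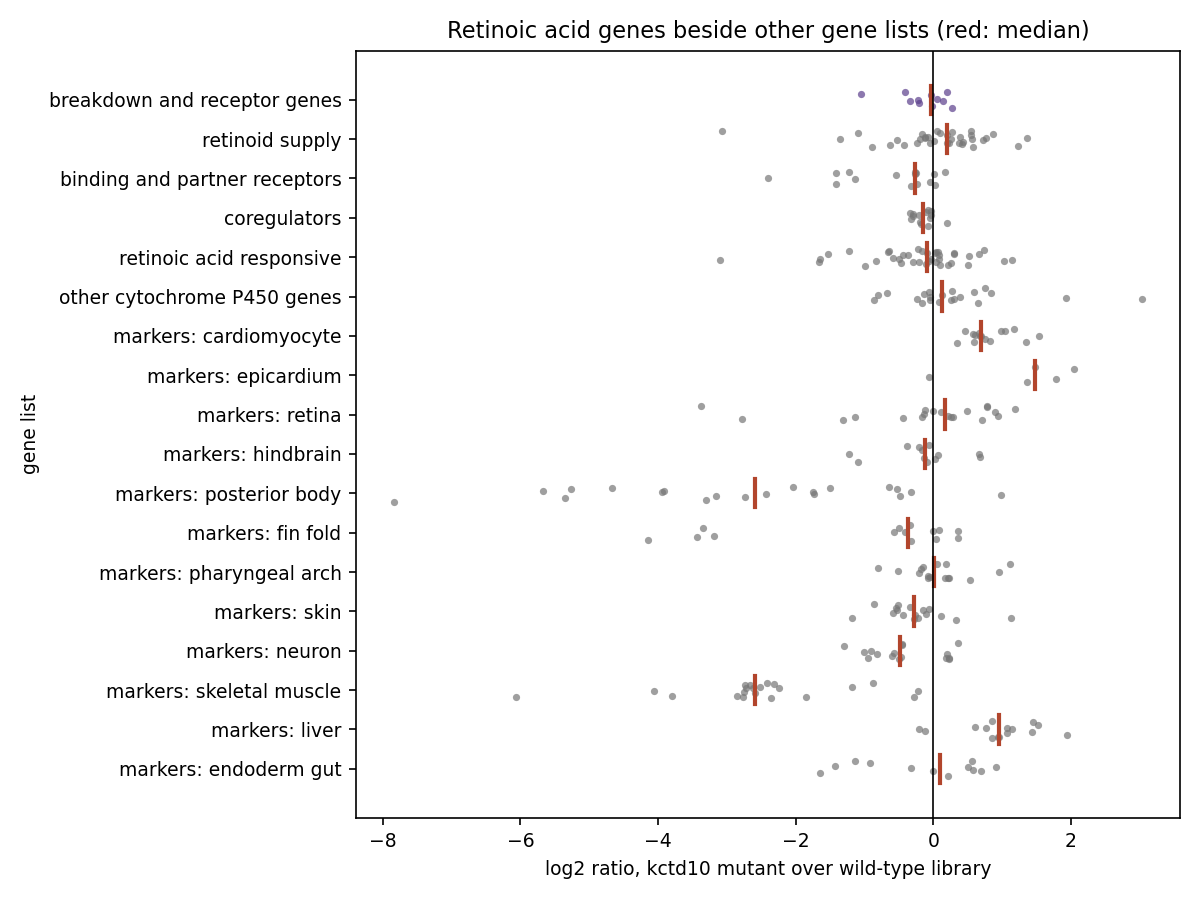
Log2 ratio of the kctd10 mutant library over the wild-type library for every measured gene of each list (points, spread vertically for legibility), with the median as a red bar and the 11 breakdown and receptor genes in the top line. Of these 11 genes all but rargb, at −1.05, lie between −0.41 and 0.27, the coregulators lie between −0.34 and 0.20, and the medians of posterior body and skeletal muscle markers lie to the left of 0 and those of cardiomyocyte, epicardial and liver markers to the right.

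Markers of several tissues differed between the libraries, and their part in the rargb value was not tested. Posterior body markers were lower in 14 of 20 cases and higher in 1, with summed levels of 14.7 CPM in the mutant library and 35.3 CPM in the wild-type library. hoxc12b, of that list, was at 0 counts in the mutant library and 121 in the wild-type library. Skeletal muscle markers were lower in 19 of 21 cases and higher in 0, with 1481 CPM in the mutant library and 3684 CPM in the wild-type library. Neuronal markers were lower in 5 of 16 cases and higher in 0, and fin fold markers lower in 4 of 14 and higher in 0, these being the actinotrichia genes and1 to and4. Skin markers were lower in 2 of 17 cases and higher in 1, with a median log2 ratio of −0.28. Hindbrain markers, from a region where Cyp26 genes are known to act, were lower in 2 of 12 cases and higher in 1, with 175 CPM in the mutant library and 192 CPM in the wild-type library. Pharyngeal arch markers were lower in 1 of 16 cases and higher in 2. Beside these counts stand the shares over all measured genes, 6.68% lower and 5.99% higher.

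Heart muscle markers went the other way, with 10 of 15 measured genes called higher and 0 lower and a median log2 ratio of 0.70. When ratios were set relative to that median, every log2 ratio shifted by −0.70, and 7 of the 11 genes were called lower, beside 45.4% of all measured genes. Those 7 were the 3 Cyp26 genes, rarab, rarga, rargb and aldh1a3. The share of higher genes among all genes called was then 3.38%, against 47.3% in the main scaling.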

How the data were processed

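Heart RNA was sequenced from Illumina TruSeq libraries, per the labels' protocols. Raw counts for each Ensembl gene were deposited without normalization. TopHat, DESeq and the build Zv9 are named per the submitters' processing notes. The sources used here do not give the counting tool, strand use or annotation release. The authors' deposited comparisons hold a fold, which is a ratio of mutant over wild type, and, per the file headers, its log2 form. Another 4 columns, whose names match no label, were set aside. The line that names no gene held 9.17% of counts in the mutant library and 9.21% in the wild-type library and stayed out of library sizes.

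Libraries were scaled by TMM (edgeR 4.0.16, R 4.3.3) to 140420264 (mutant) and 148591398 (wild type) counts. Ratios carry exact 95% Clopper-Pearson intervals from both counts (scipy 1.17.1), and log2 ratios had 0.5 added to each count. No test between genotypes was run. The steps were run on simulated counts drawn with counting error alone, which cannot show how the intervals fare with variation between libraries. Alternatives were upper-quartile scaling, library totals, DESeq2 1.42.0 size factors, TMM without the 100 most counted genes, scaling to cardiomyocyte markers, the authors' folds, and other limits. The members and lists were chosen with earlier results of these data known. Of 330 entries in 17 further lists 312 (94.5%) matched a gene. Named are all members, kctd10, and of each list up to 4 higher and 4 lower genes farthest from no change and the most counted, given in part for markers. The genes stra6, dhrs3b, tgm2b, nrip1b, ncor1, the ncoa genes, myl4, tbx18, meis2b and isl1 were named after their values were seen. So were crabp1b, crabp2b, rxraa, rxrab, rxrbb, rorab, rlbp1b, fabp10a, hpx, ahsg and ttr. Some listed genes are not reported here.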

Additional observations from a re-analysis of the deposited data

How the results depend on the processing

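The count of higher genes was 0 under every alternative run. The count of lower genes was 1, rargb, in the main analysis. It was 7 when scaled to the cardiomyocyte list median and 2 with a smaller fold limit (cyp26b1 and rargb). It was 0 with a limit of 2, because the near bound of the rargb interval is 1.81-fold. Of all measured genes, 45.4% were lower under the cardiomyocyte scaling, 12.8% with the smaller limit and 2.82% with the limit of 2. The count was 1 under the other scalings, the authors' deposited fold, a wider interval, a minimum of 50 counts and no minimum. Shares over all measured genes in these settings ran between 5.62% and 6.86%. Neither count minimum could change the result, since each of the 11 genes had at least 327 counts in the mutant library. The authors' fold applies a constant to the same counts and gave the same values as DESeq2 size factors, so these are not separate checks. The median log2 ratio of −0.031 became −0.73 under the cardiomyocyte scaling, which moves every gene alike, and −0.15 as a mean, and lay between −0.035 and −0.0038 under the other alternatives. For single genes, the log2 ratio of cyp26c1 was −0.023 and 0.0043 under library totals, and those of raraa, dhrs3a and both crabp2a identifiers turned negative under the cardiomyocyte scaling. The largest shift under the remaining alternatives was 0.027. No paired analysis was possible because each genotype has 1 library. The widest counting interval of the 11 genes, that of rargb, spans 1.81-fold to 2.36-fold lower, and the spread between libraries of 1 genotype was not measured.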

Other observations

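Of 21 measured genes from other branches of the cytochrome P450 superfamily, 4 were called higher and 0 lower in the mutant library. Their median log2 ratio was 0.13, and the shares over all measured genes were 5.99% higher and 6.68% lower. cyp24a1, whose enzyme inactivates vitamin D, had 7973 counts in the mutant library and 1026 in the wild-type library, 8.22-fold higher (7.70 to 8.78). cyp51, of sterol synthesis, was 1.68-fold higher (1.60 to 1.77) and cyp1b1 1.57-fold higher (1.502 to 1.65). cyp11a1, of steroid hormone synthesis, was 4.06-fold higher (1.61 to 12.2) on 23 counts in the mutant library and 6 in the wild-type library. The most counted gene of this list, cyp17a1, had a ratio of 0.910 (0.880 to 0.942).

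Liver markers were higher in 10 of 15 cases and lower in 0. Their summed levels were 7300.02 CPM in the mutant library and 3796 CPM in the wild-type library. Of these sums apobb alone gave 3038 CPM in the mutant library and 1111 CPM in the wild-type library. The other 5 markers were rbp4, with a ratio of 0.919, and the sparsely counted fabp10a, hpx, ahsg and ttr. Each of those had at most 65 counts in either library, fabp10a 14 in the mutant library and 8 in the wild-type library. Which tissue the transcripts of this list came from was not tested. Genes of gut and pancreas were higher in 1 of 12 cases and lower in 4. Beside the counts of both lists, 5.99% of all measured genes were higher and 6.68% lower.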
